A study of Solanum lycopersicum with 8 samples.

Results

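Lipoxygenases open the oxylipin pathway of plants by adding oxygen to polyunsaturated fatty acids at carbon 9 or at carbon 13 of the chain. Hydroperoxides made at carbon 13 feed either hydroperoxide lyase, whose short-chain aldehydes and the alcohols and esters derived from them are the green leaf volatiles, or the allene oxide synthase branch that leads to the hormone jasmonate. Hydroperoxides made at carbon 9 feed separate branches. The 7 genes described here were chosen by gene ID from 34725 gene models: the 9-lipoxygenases LoxA, LoxB and LoxE, the 13-lipoxygenases LoxC and LoxF, hydroperoxide lyase (HPL) and the alcohol dehydrogenase ADH2, which is known for reducing aldehydes to alcohols in ripening tomato fruit.

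Messenger RNA was sequenced from 4 libraries of type VI trichome gland cells and 4 libraries of trichome-shaved leaf of tomato (Solanum lycopersicum), cultivar M82, in 4 sampling times with 1 library of each tissue. Type VI trichomes are leaf hairs with a head of secretory gland cells. Plants were 5 weeks old and grown at 28 °C under 250 µE of light. By the labels the trichome libraries are complemented line #4, which is a single line, and the leaf libraries are the af mutant, so tissue and labelled genotype cannot be told apart. The labels' protocols instead take both tissues from the same plants, and which statement holds is not settled by the sources used here. The leaf was also shaved of its trichomes, so tissue and handling cannot be told apart either. A response of the leaf to shaving was not tested. In bulk RNA such as this, fewer cells of a type and less RNA per cell cannot be told apart.

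Trichome libraries held 24596280 to 26514416 gene reads and leaf libraries 19209754 to 34941715. Levels are read counts scaled to library size (CPM) with TMM factors, so they compare 1 gene between libraries. No transcript lengths were used, so the ranks, shares, sums and ratios across genes given below are of reads and not of transcripts. The gland genes PHS1, NDPS1 and TPS12, which make monoterpenes, their precursor and sesquiterpenes, summed to 8754 to 15378 CPM in trichome and 14.4 to 89.8 CPM in leaf. The mesophyll genes RBCS-2A and CAB4 summed to 1238 to 1696 CPM in trichome and 13869 to 20216 CPM in leaf. Acylsugar genes that mark other glandular hairs (ASAT1, ASAT3 and IPMS3) summed to 87.9 to 131 CPM in trichome and 0.489 to 8.88 CPM in leaf. The phloem loader SUT1 had 1.11 to 2.32 CPM in trichome and 109 to 243 CPM in leaf.

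The question put to these libraries is how the carbon-9 and carbon-13 lipoxygenases and the green leaf volatile branch divide between gland cells and the leaf beneath them. LoxC, HPL, ADH2 and LoxE were higher in trichome, and LoxF and LoxA were lower. That is 4 higher and 2 lower among the 6 genes with enough reads to test, called where edgeR's quasi-likelihood test gave a Benjamini-Hochberg adjusted p below 0.05. Of all 20409 tested genes 72.4% were called, 33.9% higher and 38.5% lower in trichome, so being called is common in this comparison. The log2 fold changes of the 6 ran from -11.57 to 8.35, with a median of 3.38, against -0.09 over all tested genes. The genes were chosen with earlier results of these data known, so this median is a description and not a shift of the set. The 7th gene, LoxB, was not tested, because it had 1 read in all 8 libraries.

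LoxC (Solyc01g006540, chromosome 1), the 13-lipoxygenase known for supplying the green leaf volatile branch, had 9346, 12544, 10094 and 21777 CPM in trichome replicates 1 to 4. In leaf replicates 1 to 4 it had 60.0, 45.3, 42.3 and 17.3 CPM. Every trichome library lay above every leaf library, and replicate 4 was both the highest trichome and the lowest leaf library. The log2 fold change was 8.35 (SE 0.62, adjusted p = 3.57e-06), a 326-fold difference, and 643 tested genes, LoxC included, had one of that size or larger in either direction. LoxC alone took 0.938% to 1.68% of all gene reads in trichome, where it was between the 3rd and the 7th most read gene. In leaf it took 0.00163% to 0.00621% and ranked between 2694th and 8338th. These ranks are by reads and are not corrected for length. Trichome replicate 4 had a TMM factor of 0.773, against 0.928 to 1.02 in the other trichome libraries, and it also had the highest share of reads before that scaling. Without both libraries of replicate 4 the log2 fold change was 7.75.

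LoxF (Solyc01g006560), the other 13-lipoxygenase of the set, went the opposite way. It had 0, 7, 5 and 7 reads in the trichome libraries, or 0, 0.307, 0.184 and 0.345 CPM, against 9603, 4535, 14744 and 45822 reads in the leaf libraries, or 484, 159, 444 and 1399 CPM. The tissues did not overlap, and leaf replicate 4 held the most and leaf replicate 2 the least. The log2 fold change was -11.57 (SE 1.04, adjusted p = 1.08e-05), or -10.80 without leaf replicate 4, and 15 tested genes, LoxF included, had a change of that size or larger in either direction. With at most 7 reads in a trichome library, the size of this fold is imprecise.

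**Figure D1:**
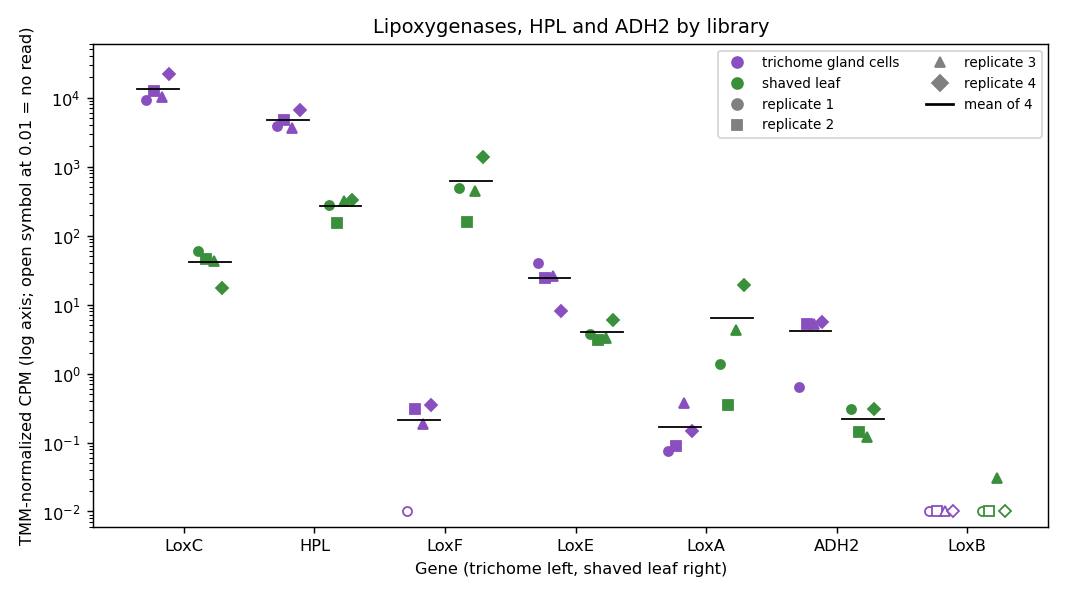
TMM-normalized CPM (log axis) of the 7 genes in each library, trichome left and shaved leaf right, with symbols for the replicates and a line at the mean of 4. LoxC, HPL, ADH2 and LoxE lie higher in all 4 trichome libraries than in any leaf library, LoxF lies far below its leaf level in all 4, and LoxA overlaps between tissues.

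LoxC and LoxF lie close together on chromosome 1. By gene ID 1 gene model lies between them, and the RefSeq gene table of another assembly also has 1, the resistance gene homologue Hcr9-0. The model between them by ID, Solyc01g006550, had too few reads to be tested, with at most 0.148 CPM in a trichome library and at most 2.57 CPM in a leaf library. Of the reads of LoxC and LoxF together, LoxF gave 0% to 0.00245% in trichome and 77.8% to 98.8% in leaf. The gene pair thus had nearly all of its reads on LoxC in trichome and most of them on LoxF in leaf. LoxC still gave 22.2% of the pair's reads in leaf replicate 2, and 1.22% in leaf replicate 4. The likeness of LoxC and LoxF in sequence was not tested, so whether they share reads is not known.

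The low leaf level of LoxC was compared with that of the gland genes, as a share of the trichome level in the same replicate. For LoxC the leaf level was 0.642%, 0.361%, 0.419% and 0.0797% of the trichome level in replicates 1 to 4. For the sum of PHS1, NDPS1 and TPS12 it was 0.746%, 0.680%, 0.264% and 0.0933%. Both shares were lowest in replicate 4, and the part of gland material in the leaf level of LoxC was not tested. In the other direction, the trichome level of LoxF was 0% to 0.193% of its leaf level, below the 7.46% to 9.71% that RBCS-2A and CAB4 together kept and the 0.498% to 2.12% of SUT1.

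HPL (Solyc07g049690, chromosome 7), which splits the carbon-13 hydroperoxides into aldehydes, had 3882, 4720.4, 3677 and 6679 CPM in trichome, against 278, 151, 320.2 and 326 CPM in leaf. The groups were well apart, and trichome replicate 4 was again the highest. The log2 fold change was 4.14 (SE 0.37, adjusted p = 1.08e-05), a 17.6-fold difference. HPL was the 17th to 19th most read gene in the trichome libraries and took 0.376% to 0.517% of gene reads there. The leaf level of HPL was 7.17%, 3.20%, 8.71% and 4.88% of its trichome level in replicates 1 to 4, above the shares of PHS1, NDPS1 and TPS12 in every replicate. The acylsugar genes that mark other glandular hairs together stood at 1.51%, 6.80%, 2.81% and 0.464%, above HPL in replicate 2 and below it in the others. Singly they differed, at 0.788% to 7.71% for ASAT3, 0% to 19.3% for ASAT1 and 0.0614% to 0.984% for IPMS3. IPMS3 was below HPL in every replicate. Reads of LoxC per read of HPL numbered 2.41 to 3.26 in trichome and 0.0532 to 0.299 in leaf. With LoxF added to LoxC, the ratio was 2.41 to 3.26 in trichome and 1.35 to 4.35 in leaf, and these ranges overlap.

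**Figure D2:**
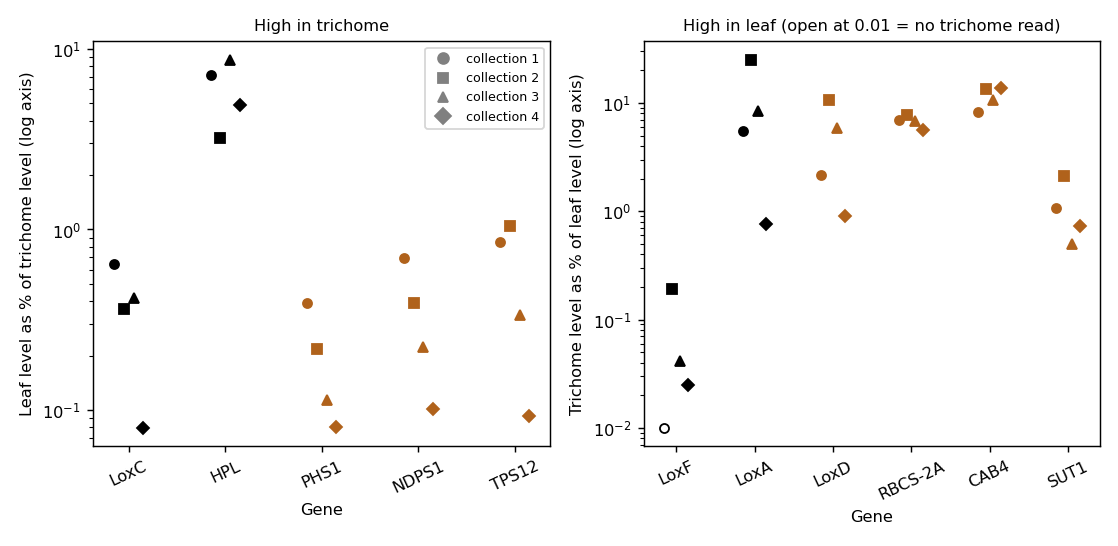
Left, leaf level as a percentage of the trichome level for LoxC, HPL and the gland genes PHS1, NDPS1 and TPS12. Right, trichome level as a percentage of the leaf level for LoxF, LoxA, LoxD and the leaf genes RBCS-2A, CAB4 and SUT1, with 1 symbol per replicate (collection) on log axes. LoxC lies close to the gland genes and HPL above them, while LoxF lies below the leaf genes.

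ADH2 (Solyc06g059740, chromosome 6) was low in both tissues. It had 0.642, 5.21, 5.31 and 5.62 CPM in trichome (17, 119, 144 and 114 reads) and 0.302, 0.140, 0.121 and 0.305 CPM in leaf (6, 4, 4 and 10 reads). Trichome replicate 1 stood far below the other trichome libraries and only just above the highest leaf library. The log2 fold change was 4.27 (SE 0.71, adjusted p = 0.000484). Within replicates the level in trichome was 2.12 times that in leaf in replicate 1 and 18.4 to 44.0 times in the others. AAT1, an alcohol acyltransferase that can turn such alcohols into esters, had 4 reads in trichome and 7 in leaf over all libraries and was not tested.

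Among the 9-lipoxygenases, LoxE (Solyc01g099160, chromosome 1) was higher in gland cells. It had 40.1, 24.3, 25.7 and 8.13 CPM in trichome and 3.73, 3.08, 3.32 and 5.89 CPM in leaf. The groups did not overlap, but in replicate 4 they came close, where trichome was lowest and leaf highest. The log2 fold change was 2.61 (SE 0.45, adjusted p = 0.000592), a 6.12-fold difference over all replicates. Within replicates it was 10.8-fold, 7.90-fold, 7.75-fold and 1.38-fold in replicates 1 to 4.

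LoxA (Solyc08g014000, chromosome 8), a 9-lipoxygenase known from ripening fruit, had 2, 2, 10 and 3 reads in trichome, or 0.0755, 0.0876, 0.368 and 0.148 CPM. In leaf it had 27, 10, 144 and 630 reads, or 1.36, 0.350, 4.34 and 19.2 CPM. It was lower in trichome in all 4 replicates, although leaf replicate 2 lay just below the highest trichome library, trichome replicate 3. The leaf level spread 55.0-fold, with replicate 4 far above the rest. The log2 fold change was -5.16 (SE 1.25, adjusted p = 0.00467), but -3.52 (adjusted p = 0.00677) without leaf replicate 4 and -5.89 (adjusted p = 0.00905) without trichome replicate 3. LoxF, LoxE and HPL were also highest in leaf replicate 4 and lowest in leaf replicate 2. ADH2 was highest in leaf replicate 4 but lowest in leaf replicate 3, and LoxC was lowest in leaf replicate 4. Among the jasmonate genes given below, LoxD, AOS2, ACX1A, MYC2, JAZ2 and JAZ3 were highest in leaf replicate 4 and lowest in leaf replicate 2. AOS1, AOC, OPR3, JAR1 and COI1 were not highest in leaf replicate 4. LoxB (Solyc01g099190), the other fruit 9-lipoxygenase, had no read in any trichome library and 1 read in leaf replicate 3. A count of 0 allows up to 0.113 to 0.122 CPM per trichome library and 0.0859 to 0.156 CPM per leaf library, for counting error only and without TMM factors.

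LoxE and LoxB also lie close together on chromosome 1, with 2 gene models between them by ID and 3 in the RefSeq table. The levels of the models around them differed sharply. Solyc01g099150, next to LoxE by ID, had 718, 303, 415 and 132 CPM in trichome against 10.6, 6.82, 15.6 and 14.2 CPM in leaf (log2 fold change 5.05, SE 0.55, adjusted p = 3.58e-05). Its trichome libraries stood in the same order as those of LoxE, highest in replicate 1 and lowest in replicate 4. Solyc01g099180, next to LoxB by ID, had no trichome read and 44.5, 33.3, 46.9 and 26.5 CPM in leaf. Its leaf mean of 37.8 CPM was about 1308 times a floor of 3 reads over the trichome group (0.0289 CPM). That floor was taken without TMM factors and the leaf mean with them, so this fold is approximate. The files pair neither ID with a name. No ID of the files matched an entry of the RefSeq table directly, so the lack of a match is not particular to these models. A match of these models by position was not tried. How alike these models are in sequence was not tested, so whether they share reads with LoxE or LoxB is not known.

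**Figure D3:**
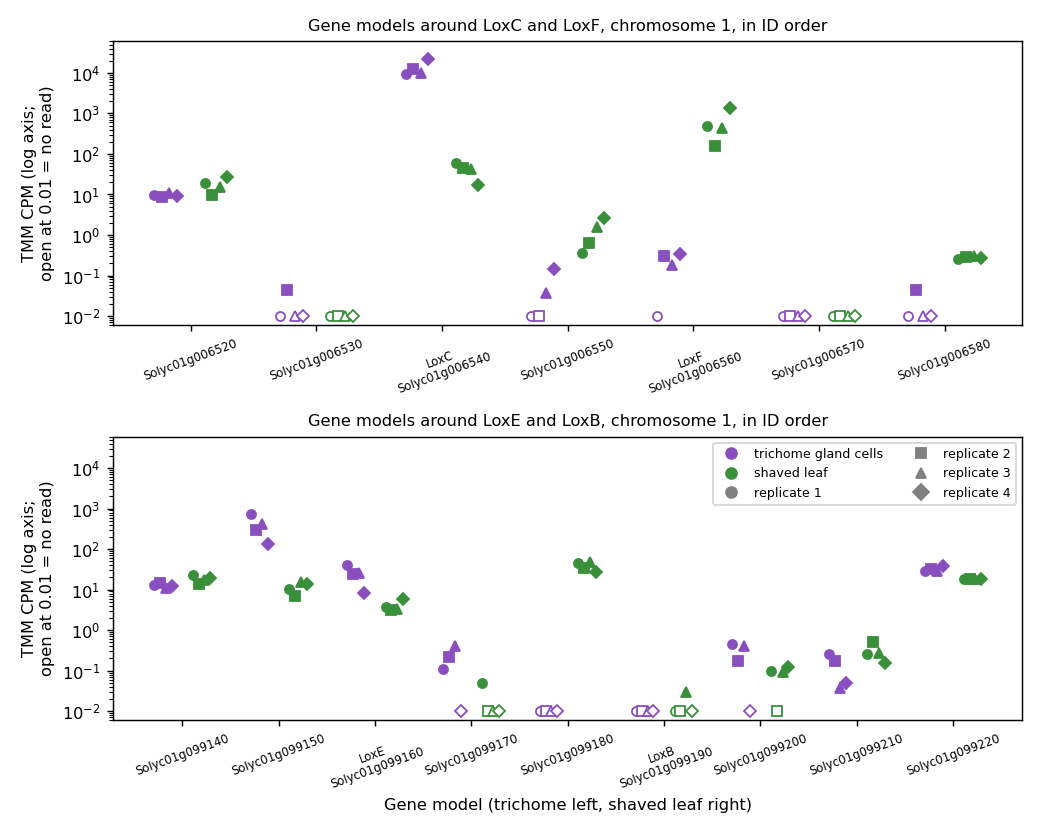
TMM-normalized CPM (log axis, open symbols for libraries with no read) of consecutive gene models by ID around LoxC and LoxF (top) and around LoxE and LoxB (bottom), trichome left and leaf right. LoxC and LoxF swap between tissues with a model of few reads between them. In the lower run LoxE and Solyc01g099150 are higher in trichome, Solyc01g099180 has reads in leaf and none in trichome, and LoxB has 1 read.

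Summed by class, LoxC and LoxF had 9346, 12544, 10094 and 21777 CPM in trichome and 544, 204, 487 and 1417 CPM in leaf. LoxA, LoxB and LoxE summed to 40.2, 24.4, 26.1 and 8.28 CPM in trichome and 5.09, 3.43, 7.69 and 25.1 CPM in leaf. The carbon-13 sum was higher in all trichome libraries than in any leaf library, while the sum of these 3 carbon-9 genes overlapped between tissues. Carbon-13 reads per carbon-9 read numbered 233, 514, 387 and 2630.1 in trichome and 107, 59.5, 63.3 and 56.4 in leaf. For these 5 genes the ratio was higher in each trichome library than in any leaf library. It depends on which carbon-9 genes are counted. What Solyc01g099150 and Solyc01g099180 encode is not known from the files, and copies of LoxE or LoxB there were not tested for. With both models added, a choice made after seeing the data, the carbon-9 sum was 140.2 to 758 CPM in trichome and 43.5 to 70.1 CPM in leaf, with no overlap. The ratio was then 12.3 to 155 in trichome and 4.68 to 21.5 in leaf, and these ranges overlap. LoxE gave 98.2% to 99.8% of the carbon-9 sum in trichome and 23.5% to 89.8% in leaf. These sums are descriptions with no test, since the genes were chosen with earlier results of the same data known.

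The jasmonate branch draws on the same carbon-13 hydroperoxides. Of its 7 listed synthesis genes 2 were higher in trichome, 3 were lower and 2 were not called, near the 33.9% higher and 38.5% lower of all tested genes. The list's median log2 fold change, -0.75, is that of AOS1, which was not called and reached 0.018 without leaf replicate 3; the median of all tested genes was -0.09. LoxD (Solyc03g122340), the 13-lipoxygenase known for wound-induced jasmonate, had 2.38, 7.97, 11.5 and 2.66 CPM in trichome and 111, 74.2, 193 and 293 CPM in leaf. It was lower in all 4 replicates (log2 fold change -4.77, SE 0.67, adjusted p = 0.000169; -4.13 without both libraries of replicate 4). LoxD thus resembled LoxF and not LoxC in its direction. Of the reads of LoxC, LoxF and LoxD together, LoxD gave 0.0122% to 0.113% in trichome and 16.9% to 28.4% in leaf.

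The allene oxide synthase AOS2 (Solyc11g069800), the first enzyme after lipoxygenase on the way to jasmonate, was higher in trichome at 136.5 ± 50.8 CPM against 21.3 ± 4.85 CPM in leaf (SD, n = 4 each; log2 fold change 2.68, adjusted p = 3.09e-05). ACX1A, an acyl-CoA oxidase that shortens the jasmonate precursor in peroxisomes, had 240.3 ± 86.1 CPM in trichome and 84.2 ± 11.5 CPM in leaf (log2 1.51). OPR3, the reductase acting before it, was lower in trichome at 18.5 ± 4.44 CPM against 45.4 ± 10.04 CPM in leaf (log2 -1.30). JAR1, which joins jasmonate to isoleucine to give the active hormone, had 1.01 ± 0.556 CPM in trichome and 42.3 ± 7.73 CPM in leaf (log2 -5.36, adjusted p = 6.45e-06). AOS1 (log2 -0.75, adjusted p = 0.416) and the allene oxide cyclase AOC (log2 -0.29, adjusted p = 0.380) did not pass the test. Among the 7, the largest falls were thus at both ends of the branch, in LoxD and JAR1, and the largest rise was in AOS2 between them.

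Among 4 named genes of jasmonate signalling, 1 was higher, 2 were lower and 1 was not called, against 72.4% called over all tested genes. The receptor gene COI1 was higher in trichome, at 219.5 ± 75.8 CPM against 72.9 ± 11.1 CPM in leaf (log2 1.59, adjusted p = 0.000283). MYC2, the transcription factor that drives wound responses, had 1.74, 3.51, 5.12 and 0.838 CPM in trichome and 129, 122, 158 and 192 CPM in leaf (log2 -5.73, adjusted p = 1.31e-05). The repressor gene JAZ3 was lower in trichome (log2 -1.26, adjusted p = 0.0245), a call lost without trichome replicate 1 or 2, leaf replicate 3 or 4, or both libraries of replicate 4 (adjusted p 0.0532 to 0.0681). JAZ2 was not called (log2 0.55, adjusted p = 0.516), but had a log2 fold change of 1.61 (adjusted p = 0.0389) without both libraries of replicate 4. FAD7, the plastid desaturase that makes the linolenic acid these enzymes use, had 592 ± 106 CPM in trichome and 801 ± 221 CPM in leaf and was not called (log2 -0.44, adjusted p = 0.138). AOS3, which acts on carbon-9 hydroperoxides, had 1 read in trichome replicate 1 and none elsewhere. In all, 12 of the 14 named genes of these lists could be tested. Listed IDs whose name could not be placed are left out above. With them, jasmonate signalling had 1 higher and 3 lower of 5 tested. Fatty acid supply then had 2 higher and 1 lower of 4 tested. The only tested ID of the other oxylipin branches was called higher (log2 4.81).

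**Figure D4:**
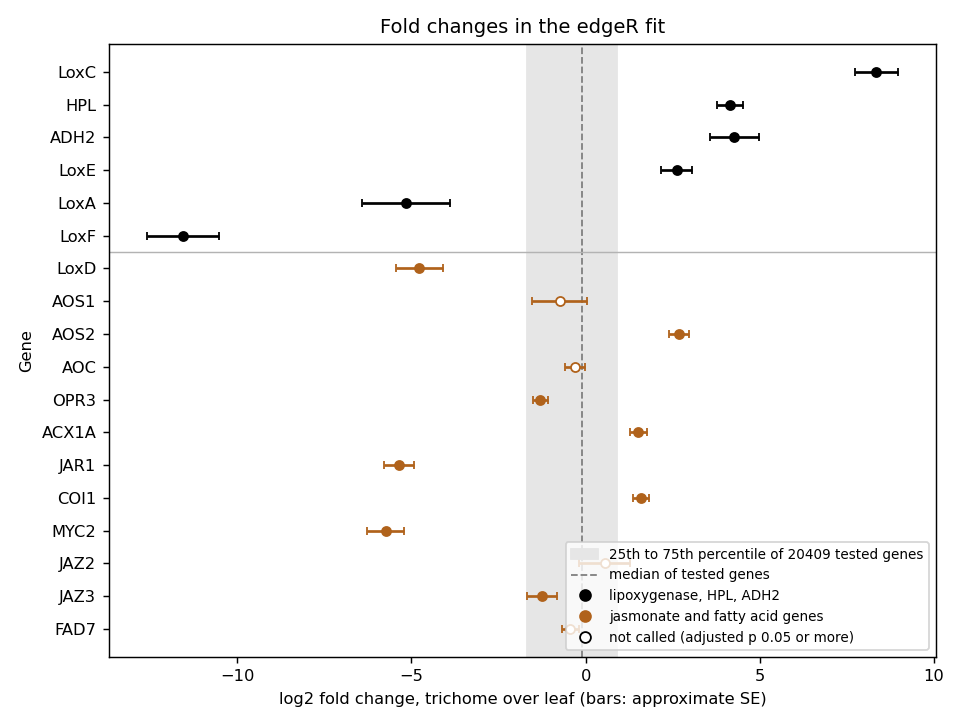
Log2 fold changes (trichome over leaf) with approximate standard errors for the 6 tested genes of the set (top) and 12 jasmonate and fatty acid genes (bottom), with filled symbols for called genes. The dashed line is the median and the grey band spans the 25th to the 75th percentile of all 20409 tested genes. LoxC and LoxF lie furthest out, at 8.35 and -11.57, and LoxD, JAR1 and MYC2 lie between -5.73 and -4.77.

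For the 2 genes with the largest rise and the 2 with the largest fall, the tested gene most alike in pattern was found by Pearson correlation of log2(CPM + 1) over the 8 libraries, a description that rests mainly on the tissue difference. Solyc04g016180 followed LoxC (r = 0.999), with 249.8 ± 48.1 CPM in trichome and 10.6 ± 2.64 CPM in leaf. Solyc00g244280 followed ADH2 (r = 0.993), with the same low trichome replicate 1 (0.453 CPM against 2.62 to 3.45 CPM). Solyc08g076890 followed LoxF (r = 0.999), with at most 0.147 CPM in trichome and 56.9, 26.6, 56.2 and 138 CPM in leaf. Solyc02g067730 followed LoxA (r = 0.995), with no trichome read and 0.957, 0.315, 2.53 and 11.5 CPM in leaf. The files give these IDs no name.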

How the data were processed

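The deposited files hold raw counts of reads per gene, 1 file per library, made by the authors and not normalized. The submitters' processing notes name HTSeq, SAMtools, TopHat2 and Trimmomatic. For versions, genome build, annotation and strand setting, nothing is stated (not given in the sources used here), so overlapping or antisense genes cannot be told apart. HTSeq's 5 summary lines (18.4% to 24.4% of reads in trichome, 12.7% to 14.5% in leaf) were left out.

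The members and lists were chosen with earlier results of these data known. The files' IDs matched 0 entries of the RefSeq table (SLM_r2.1), so names rest on published IDs whose chromosome and relative position lay within 5 percentage points of the table's symbol. This held for all 7 members and for 30 of 36 listed genes; the other 6 are not named.

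Counts were tested with edgeR 4.0.16 (R 4.3.3; TMM, filterByExpr, quasi-likelihood, no block), with Benjamini-Hochberg adjustment over 20409 genes and a threshold of 0.05. The method was run on simulated counts in which few genes changed, equally up and down. That run does not show how the method behaves where most genes are called, as here. Standard errors are approximate (fold change over the root of F). Sampling numbers were taken to pair the libraries, from the labels' sampling times; deviations of same-numbered libraries correlated at 0.0990 to 0.188, those of other pairs at -0.197 to 0.135. Alternatives were upper-quartile or RLE factors, no factors, other filters, DESeq2 1.42.0, limma-voom (limma 3.58.1), a replicate block, leaving out each library, and, chosen after seeing the data, leaving out both libraries of replicate 4. Nothing says more of the replicates than 4 separate collections, and p-values measure the spread between them.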

Additional observations from a re-analysis of the deposited data

Results flagged for a closer look

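Among 42 groups of 4 libraries (each gene in each tissue), 3 had 1 library standing far from the other 3. For normally spread values, chance alone marks about 5% of groups. The groups of LoxB and AOS3 held too few reads to be marked. ADH2 had 0.642 CPM in trichome replicate 1, against 5.21 to 5.62 CPM in the other trichome libraries. COI1 had 332.9 CPM in trichome replicate 4, against 175.3 to 185.3 CPM in the others. AAT1 had 0.175 CPM in trichome replicate 2, which is 4 reads, and none in the other trichome libraries. With reads in 1 library alone, this group was marked by construction.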

How the results depend on the processing

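All 6 tested genes of the set kept their direction and their call in every alternative in which they were tested, with log2 fold changes of 7.75 to 8.58 for LoxC, 3.91 to 4.25 for HPL, 3.84 to 4.62 for ADH2, 2.27 to 3.14 for LoxE, -11.90 to -10.80 for LoxF and -5.89 to -3.47 for LoxA. With at least 5 CPM in 4 libraries LoxA and ADH2 were not tested, by construction, which leaves 1 gene lower. LoxA moved most, to -3.47 without both libraries of replicate 4 and -3.52 without leaf replicate 4, and was -4.12 with limma-voom and -4.48 with the replicate block. The block changed no call among these genes or the lists (8 of 12 called), but the p-values printed for each gene ignore the pairing. With the block, edgeR's adjusted p was larger for LoxC (0.000104), HPL (0.00011), LoxF (4.07e-05), LoxE (0.00442) and ADH2 (0.00262). For LoxA it was smaller (0.00183). Outside the set, AOS1 reversed without leaf replicate 3 (0.018, range -1.13 to 0.018 without single libraries) and JAZ2 without trichome replicate 3 (-0.054, range -0.054 to 1.30), neither called, while JAZ2 was called without both libraries of replicate 4 (1.61), and FAD7 was called lower with library size alone (-0.65, adjusted p = 0.00996). Library size alone moved the median of all genes by -0.215 and gave 38.6% of calls as higher in trichome, against 46.9%. The number of genes called ran from 10944 to 16208. The median carbon-13 to carbon-9 ratio of 451 in trichome and 61.4 in leaf ran from 387 to 514 and from 59.5 to 63.3 without single libraries; with LoxD added it was 451 and 84.8. With Solyc01g099150 and Solyc01g099180 counted as carbon-9 genes, chosen after seeing the data, it was 30.6 in trichome and 7.98 in leaf. Coding lengths were not at hand, so the ratio per length was not run. Depth limits LoxB, AAT1, AOS3 and the trichome values of LoxF and LoxA.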
